A study of Mus musculus with 8 samples.

Results

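Glucose uptake and lactate export were followed in mouse embryonic fibroblasts through 9 genes: the glucose transporters Slc2a1, Slc2a3, Slc2a4 and Slc2a6, the monocarboxylate transporters Slc16a1 and Slc16a3, their chaperone basigin (Bsg), and the lactate dehydrogenase subunits Ldha and Ldhb. Every probe set that the platform annotation gives to 1 of these genes alone was taken, which made 19 of the 45037 probe sets other than controls, and 9 of the 18193 genes named on the array. Slc2a3 and Ldhb had 4 probe sets each, Slc2a1 had 3, Slc2a4 and Slc16a1 had 2 each, and the other 4 genes had 1 each.

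The cells came from embryos of the C57BL6/J strain at stage E14.5, either wild type (Hif-p4h-1+/+) or lacking Hif-p4h-1 (Hif-p4h-1-/-), and were kept in normoxia or in hypoxia. The 4 groups were thus wild type in normoxia, wild type in hypoxia, knockout in normoxia and knockout in hypoxia, with 2 arrays each, 1 in a first and 1 in a second set. Egln2 is the gene of Hif-p4h-1, an oxygen-dependent prolyl hydroxylase whose substrates, the alpha subunits of the transcription factor HIF (hypoxia-inducible factor), are degraded once hydroxylated. Not given in the sources used here were the oxygen level, the length of the hypoxia, the design of the knockout allele, any pooling of embryos, and whether both arrays of a group stem from separate cultures, so the spread behind the p-values is that of the arrays and may be technical only.

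A cell takes up glucose by facilitated diffusion through transporters of the GLUT family, breaks it down to pyruvate by glycolysis, and can reduce the pyruvate to lactate, which regenerates the NAD+ that glycolysis needs. Lactate then leaves with a proton through monocarboxylate transporters (MCT), which reach the cell surface only together with an accessory protein, for which basigin is the usual partner. In low oxygen HIF binds a short core motif in regulatory DNA and raises the transcription of many genes of this route, Slc2a1, Slc16a3 and Ldha among the best known.

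Values are log2 expression values, so a difference of 1 is a factor of 2. The arrays of a group had a Pearson's r of 0.983 to 0.989 across probe sets. The sets lay apart on the first principal component (49.7% of the variance), and the set was a term in the fit. Each of the 12 fibroblast markers lay above the 25th percentile of all probe sets, and their mean log2 value lay between 11.75 and 12.12 on the 8 arrays. Egln2 had lower values in the knockout than in wild type in normoxia (8 and 8.34 against 8.84 and 9.07), a difference of -0.78 ± 0.0928 (SE, n = 2 per group) that did not pass in the fit over all probe sets (limma, adjusted p = 0.135). The position of its probe set relative to the deleted part is not known here, so this checks the genotype labels only in part.

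The promoters of the genes whose values are compared most closely below are shown first, because HIF acts through short sequences of this kind. RefSeq promoter windows (build GRCm38.p6, 250 bases before to 50 after a transcription start) were matched by symbol for 6 of the 9 genes, and Ldha had 2 starts. Each window is printed 5′ to 3′ on the strand of its gene, in lower case, with capitals for the A form of the HIF core motif, ACGTG, or its reverse complement CACGT. The windows are those of Slc2a1 (chr4:119108495-119108794, plus strand), Slc16a3 (chr11:120948817-120949116, plus strand), the upstream start of Ldha (chr7:46845554-46845853, plus strand), Slc16a1 (chr3:104638414-104638713, plus strand) and Ldhb (chr6:142507908-142508207, minus strand).
Slc2a1: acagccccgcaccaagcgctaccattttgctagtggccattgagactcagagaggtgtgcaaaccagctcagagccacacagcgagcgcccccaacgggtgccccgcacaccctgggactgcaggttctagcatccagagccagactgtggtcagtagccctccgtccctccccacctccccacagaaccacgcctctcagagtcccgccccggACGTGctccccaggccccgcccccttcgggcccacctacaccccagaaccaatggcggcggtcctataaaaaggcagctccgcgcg
Slc16a3: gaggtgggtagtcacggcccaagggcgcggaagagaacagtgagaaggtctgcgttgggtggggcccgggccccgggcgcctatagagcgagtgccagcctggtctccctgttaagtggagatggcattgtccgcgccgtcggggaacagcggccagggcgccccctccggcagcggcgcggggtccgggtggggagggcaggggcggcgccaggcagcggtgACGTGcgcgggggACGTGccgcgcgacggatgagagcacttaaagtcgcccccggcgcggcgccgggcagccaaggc
Ldha: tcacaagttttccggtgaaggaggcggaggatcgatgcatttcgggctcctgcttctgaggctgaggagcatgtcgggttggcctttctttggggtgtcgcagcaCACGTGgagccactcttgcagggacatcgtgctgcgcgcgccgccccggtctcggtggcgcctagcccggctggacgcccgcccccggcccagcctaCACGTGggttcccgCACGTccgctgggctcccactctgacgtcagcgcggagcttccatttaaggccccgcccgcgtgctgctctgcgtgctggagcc
Slc16a1: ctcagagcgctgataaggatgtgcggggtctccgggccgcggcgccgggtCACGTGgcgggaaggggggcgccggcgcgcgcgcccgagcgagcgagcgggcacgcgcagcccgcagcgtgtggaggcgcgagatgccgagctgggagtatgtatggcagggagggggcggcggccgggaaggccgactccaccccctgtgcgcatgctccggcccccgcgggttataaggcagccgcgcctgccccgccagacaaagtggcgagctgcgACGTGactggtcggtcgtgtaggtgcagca
Ldhb: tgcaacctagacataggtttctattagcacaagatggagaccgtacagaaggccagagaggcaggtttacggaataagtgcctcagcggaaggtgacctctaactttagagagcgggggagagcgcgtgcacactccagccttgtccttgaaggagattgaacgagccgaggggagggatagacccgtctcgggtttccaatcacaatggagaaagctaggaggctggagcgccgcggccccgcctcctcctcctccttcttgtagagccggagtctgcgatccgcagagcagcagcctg

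The motif was searched on both strands in its forms ACGTG and GCGTG. The Slc2a1 window held 1 match to ACGTG, beginning 36 bases before the start, and that of Slc16a3 held 2, beginning 27 and 14 bases before it. The upstream Ldha window held 5 matches to ACGTG at 3 places, since 2 of these places read CACGTG, which contains ACGTG on both strands. Slc16a1 held 3 matches at 2 places, 1 of them CACGTG, while Ldhb, Slc2a6 and the downstream start of Ldha held none. Of all 32851 windows of this length in that source, 19.6% held ACGTG, 8.21% held at least 2 matches and 1.73% at least 3. The form GCGTG, held by 32.4% of all windows, occurred in 6 of the 7 member windows, including 4 times in Slc2a6 and once in Ldhb, and was not found in that of Slc16a3. A match is a description of letters in these windows and says nothing about binding.

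**Figure D1:**
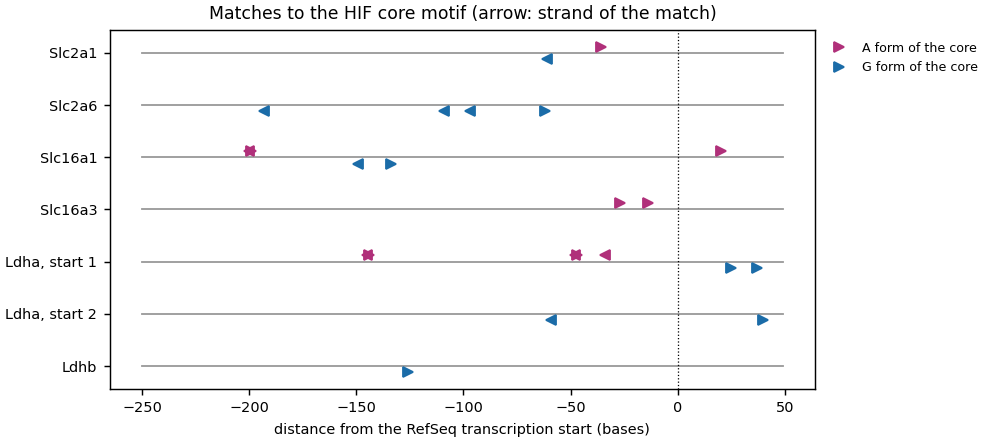
Positions of matches to the A form (ACGTG) and the G form (GCGTG) of the HIF core motif in the 7 promoter windows of 6 genes, as distance in bases from the RefSeq transcription start; an arrow gives the strand of the match, and a star is a pair of arrows on opposite strands. Matches to the A form lie within 50 bases before the start in Slc2a1, Slc16a3 and the upstream Ldha window. Slc16a1, not called with hypoxia, carries the A form about 200 bases before the start and 20 bases after it. The lines of Ldhb, Slc2a6 and the downstream Ldha start carry no A form.

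In wild-type fibroblasts 5 of the 9 genes, with members of uptake, export and lactate formation among them, rose in hypoxia. Of the 19 probe sets 8 rose, 1 fell and 10 did not pass (limma with Benjamini-Hochberg adjustment over all probe sets, adjusted p under 0.05). The background was 3.81% of all probe sets higher and 3.47% lower. Taking the brightest probe set of each gene, Slc2a1, Slc2a3, Slc16a3, Bsg and Ldha rose, and Slc2a4, Slc2a6, Slc16a1 and Ldhb did not pass. With 1 probe set a gene, 4.09% of all genes were higher and 4.6% lower. The median change over the 19 probe sets was 0.20, and over all probe sets it was -0.01.

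In the knockout Slc2a1, Slc2a3, Slc16a3, Bsg and Ldha rose as well. Of the 19 probe sets 7 rose, none fell and 12 did not pass, against a background of 2.18% higher and 2.49% lower, and the median change was 0.25 against 0.02 over all probe sets. By gene the background was 2.49% higher and 2.7% lower. Over both genotypes 8 probe sets rose and 4 fell, against 7.49% and 8.31% of all probe sets. The 4 that fell were the probe sets of Ldhb and so stand for 1 gene. By gene 5 of 9 rose and 1 fell, against 8.56% and 9.56% of all genes, so the count of falls is near the background share.

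**Figure D2:**
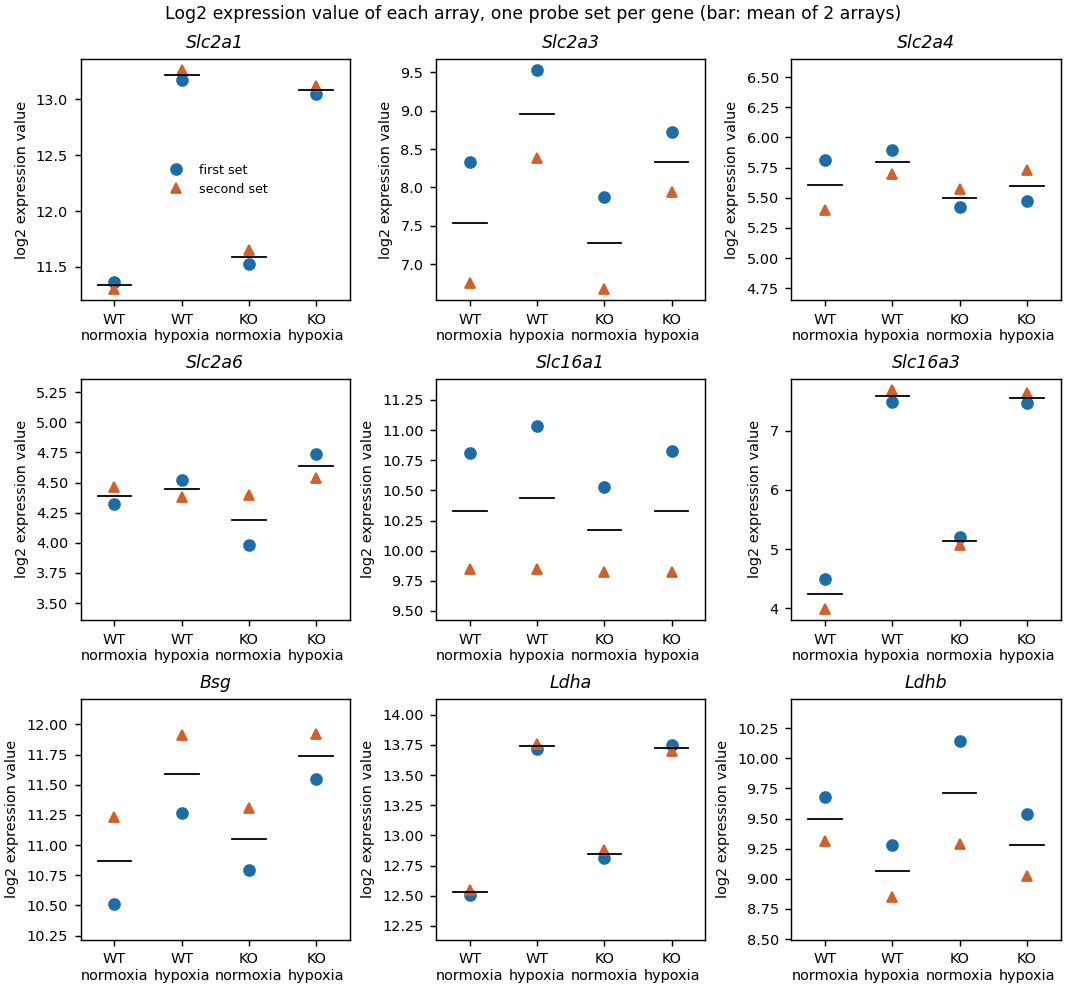
Log2 expression value of each array for the brightest probe set of each gene, by group, with circles for the first set, triangles for the second and a bar for the mean of 2 arrays; each panel has its own vertical range of at least 2 log2 units. Slc2a1, Slc16a3 and Ldha separate hypoxia from normoxia in both genotypes, and Slc16a1 separates the first from the second set.

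Slc2a1 encodes GLUT1, the main glucose transporter of fibroblasts. Its brightest probe set, 1434773_a_at, read 11.37 and 11.30 in normoxic wild type and 13.17 and 13.26 in hypoxic wild type. In the knockout it read 11.53 and 11.65 in normoxia and 13.05 and 13.12 in hypoxia. All 4 hypoxic arrays were above all 4 normoxic arrays, with no overlap.

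The change of Slc2a1 with hypoxia was 1.88 ± 0.064 in wild type, a factor of 3.68 (SE, n = 2 per group, adjusted p = 6.7e-06), and 1.5 ± 0.064 in the knockout, a factor of 2.82 (adjusted p = 4.51e-05). The other 2 probe sets of Slc2a1 moved the same way. Probe set 1426599_a_at rose by 2.06 ± 0.0661 and 1.63 ± 0.0661, and the dimmer 1426600_at by 2.74 ± 0.0821 and 2.26 ± 0.0821, in wild type and knockout. The 3 probe sets of this gene differed in size, from a factor of 3.68 to a factor of 6.70 in wild type, so the size of the rise depends on the probe set read.

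Slc2a3 encodes GLUT3, a transporter of high glucose affinity best known from neurons and also made by leukocytes. Its probe set 1437052_s_at read 8.33 and 6.75 in wild-type normoxia, 9.53 and 8.38 in wild-type hypoxia, 7.88 and 6.67 in knockout normoxia and 8.72 and 7.94 in knockout hypoxia. In each group the array of the second set was the lower. Within each set both hypoxic arrays were above both normoxic arrays.

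The rise of Slc2a3 was 1.41 ± 0.169 in wild type (adjusted p = 0.0037), and the knockout had 1.05 ± 0.169 (adjusted p = 0.0154). The change was 1.20 in the first and 1.63 in the second set of wild type, and 0.84 and 1.27 in the knockout. Without the set in the fit neither passed (adjusted p = 0.709 and 0.874), nor with the set as a random block (adjusted p = 0.124 and 0.273). The wild-type call was lost as well with only the wild-type groups in the limma fit (1.42, adjusted p = 0.0581). In the knockout the call was also lost without normoxia replicate 1 (1.08), normoxia replicate 2 (1.03) or hypoxia replicate 2 (0.79), with adjusted p up to 0.161.

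The other 3 probe sets of Slc2a3 behaved unequally. The probe set 1455898_x_at, of a class whose probes can also match other transcripts, rose in wild type, by 1.45 ± 0.22 (adjusted p = 0.00817), and its 0.94 ± 0.22 in the knockout did not pass (adjusted p = 0.0518). The remaining probe sets, 1421924_at and 1427770_a_at, lay between 3.10 and 3.88 on all arrays with means below the 25th percentile of 3.60, and were not called in any comparison made here.

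Slc2a4 and Slc2a6 did not pass with hypoxia in either genotype. Slc2a4 encodes GLUT4, the insulin-responsive transporter of muscle and fat, and its probe set 1415958_at read between 5.40 and 5.90 on the 8 arrays, changing by 0.20 in wild type (95% interval -0.24 to 0.63) and by 0.10 in the knockout (-0.33 to 0.54). Its probe set 1415959_at read between 5.07 and 5.56. Slc2a6 encodes a transporter of intracellular membranes that is prominent in macrophages, and read 4.32 and 4.46 in wild-type normoxia and 4.52 and 4.38 in wild-type hypoxia. In the knockout it read 3.98 and 4.40 in normoxia and 4.74 and 4.54 in hypoxia, a change of 0.45 ± 0.188 that did not pass (adjusted p = 0.238), with 0.76 in the first and 0.14 in the second set.

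Slc16a3, which encodes the lactate exporter MCT4, had the largest change of the 9 genes in both genotypes. It read 4.5 and 3.99 in wild-type normoxia and 7.48 and 7.69 in wild-type hypoxia, a rise of 3.34 ± 0.191 or a factor of 10.1 (adjusted p = 0.000113). In the knockout it read 5.20 and 5.07 in normoxia and 7.47 and 7.63 in hypoxia, a rise of 2.41 ± 0.191 or a factor of 5.33 (adjusted p = 0.00105). The 4 hypoxic arrays lay between 7.47 and 7.69, whereas the 4 normoxic arrays spread from 3.99 to 5.20. The wild-type normoxic readings lay not far above 3.60, the 25th percentile of all probe sets, and the file holds no detection calls, so whether these folds are only lower bounds is not known.

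Slc16a1, which encodes MCT1, a transporter that carries lactate in either direction, did not pass with hypoxia. Probe set 1415802_at read 10.81 and 9.85 in wild-type normoxia, 11.03 and 9.85 in wild-type hypoxia, 10.53 and 9.82 in knockout normoxia and 10.83 and 9.82 in knockout hypoxia. The changes were 0.11 ± 0.108 in wild type (95% interval -0.14 to 0.36) and 0.15 ± 0.108 in the knockout (-0.10 to 0.40). In the first set the values were higher in hypoxia by 0.22 and 0.30, and in the second set the difference was 0 in both genotypes. A fit that let the response differ between sets, chosen after these values were seen, gave -0.26 ± 0.125 for the second minus the first set, which did not pass (adjusted p = 0.687). A second probe set, 1446274_at, read between 3.48 and 3.91 on all arrays and was not called.

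Bsg, the chaperone of MCT1 and MCT4, read 10.51 and 11.23 in wild-type normoxia, 11.27 and 11.91 in wild-type hypoxia, 10.79 and 11.31 in knockout normoxia and 11.55 and 11.92 in knockout hypoxia. It was higher in hypoxia within each set and genotype, by 0.76 in the first set of both genotypes and by 0.68 and 0.61 in the second. The rise was 0.72 ± 0.0886 in wild type, a factor of 1.65 (adjusted p = 0.00401), and 0.69 ± 0.0886 in the knockout, a factor of 1.61 (adjusted p = 0.00763). Without the set in the fit neither passed (adjusted p = 0.691 and 0.844), nor with the set as a random block (adjusted p = 0.117 and 0.179). The wild-type call was lost without wild-type normoxia replicate 1 (0.61, adjusted p = 0.0584), and the knockout call without knockout normoxia replicate 1 (0.71, adjusted p = 0.0627) or hypoxia replicate 1 (0.56, adjusted p = 0.052).

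Ldha encodes the M subunit of lactate dehydrogenase, the isoform that favours the reduction of pyruvate. It read 12.51 and 12.55 in wild-type normoxia and 13.72 and 13.76 in wild-type hypoxia, a rise of 1.21 ± 0.052 or a factor of 2.31 (adjusted p = 2.43e-05). In the knockout it read 12.81 and 12.88 in normoxia and 13.75 and 13.70 in hypoxia, a rise of 0.88 ± 0.052 or a factor of 1.84 (adjusted p = 0.000177). All hypoxic arrays lay above all normoxic arrays. Ldha is among the brightest probe sets of the array, with a mean at the 99.4th percentile.

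Ldhb encodes the H subunit, the isoform typical of tissues that oxidise lactate, and its change with hypoxia was opposite in direction to that of Ldha. Probe set 1416183_a_at read 9.68 and 9.31 in wild-type normoxia, 9.28 and 8.85 in wild-type hypoxia, 10.14 and 9.29 in knockout normoxia and 9.54 and 9.02 in knockout hypoxia. Over both genotypes it fell by 0.43 ± 0.0851 (adjusted p = 0.0107), with -0.50 in the first and -0.37 in the second set.

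The other 3 probe sets of Ldhb fell by 0.34 to 0.46 over both genotypes (adjusted p = 0.00976 to 0.0429). Within wild type alone 1 of the 4 passed, 1434499_a_at at -0.56 ± 0.124 (adjusted p = 0.0321), and within the knockout none did, with changes from -0.43 to -0.28. These probe sets stand for the same gene and are not independent of each other. Among them 1455235_x_at and 1448237_x_at are of the class whose probes can also match other transcripts. Over both genotypes all 4 calls were lost without wild-type normoxia replicate 2, without the set in the fit and with the set as a random block, where 1416183_a_at had an adjusted p of 0.0576 (at -0.38), 0.53 and 0.117. Leaving out knockout hypoxia replicate 2 kept 1 of the 4, and each of wild-type normoxia replicate 1, wild-type hypoxia replicate 1, knockout normoxia replicate 1 and knockout hypoxia replicate 1 kept 2.

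**Figure D3:**
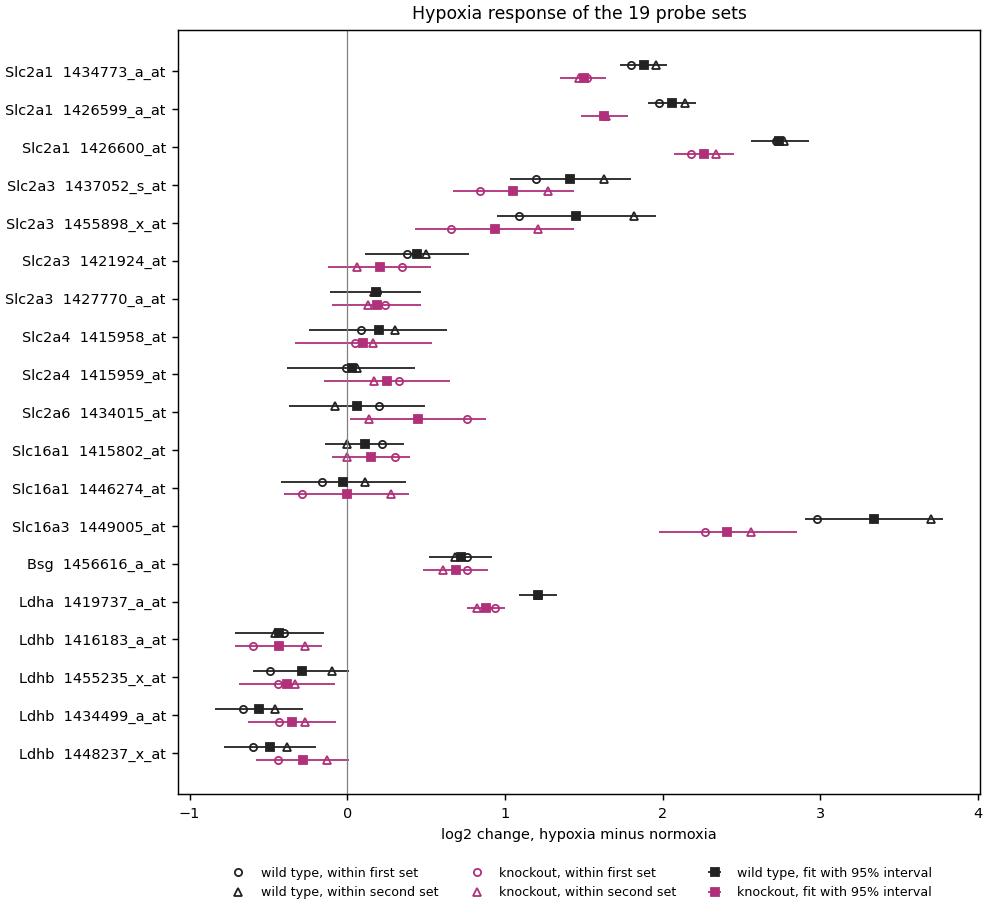
Log2 change from normoxia to hypoxia for each of the 19 probe sets, in wild type (black) and knockout (purple); squares with bars are the fitted change with its 95% interval, and open symbols the difference within each set. The probe sets of Slc2a1, Slc16a3 and Ldha lie to the right of 0 in both genotypes, with the wild-type square farther right, and the 4 probe sets of Ldhb lie to the left.

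The genes between uptake and export were counted for context. Of 13 measured glycolytic enzymes, 10 rose with hypoxia in wild type and the same number in the knockout, and none fell. Of all genes 4.09% were higher and 4.6% lower in wild type, and 2.49% and 2.7% in the knockout. The medians of the enzymes were 0.96 and 0.79 against -0.01 and 0.03 over all genes. Over both genotypes Pfkl, a phosphofructokinase subunit, rose by 2.17 ± 0.0759, Tpi1, triose phosphate isomerase, by 1.42 ± 0.0536, Aldoa, an aldolase, by 1.17 ± 0.0445 and Pgam1, a phosphoglycerate mutase, by 0.81 ± 0.0408. Their adjusted p were 3.43e-06, 4.62e-06, 4.65e-06 and 2.76e-05.

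No further measured gene of the transporter families was called with hypoxia. None of 10 other measured glucose transporters and none of 11 other SLC16 family genes passed with hypoxia in wild type, in the knockout or over both, in the limma fit. Of all genes 4.09% were higher and 4.6% lower in wild type, 2.49% and 2.7% in the knockout, and 8.56% and 9.56% over both. Lists this short would hold few calls at those shares, so the absence of calls says little about either list. Over both genotypes their medians were -0.06 and -0.01 against 0.01 over all genes. Slc16a6, the other SLC16 family gene with the smallest p, differed by -0.39 ± 0.17 over both genotypes (limma adjusted p = 0.18). Slc16a7, which encodes MCT2 and was named after its values were seen, read between 5.94 and 6.65. It changed by 0.10 in wild type and -0.09 in the knockout. Slc2a8, the other glucose transporter with the smallest p, differed by -0.15 ± 0.0874 over both genotypes (adjusted p = 0.321).

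At the branch point of pyruvate, 1 of 15 measured genes of lactate and pyruvate handling rose over both genotypes and 3 fell, where 8.56% of all genes were higher and 9.56% lower. Pdk1, the kinase that inactivates pyruvate dehydrogenase, rose by 3.35 ± 0.0716 (adjusted p = 2.78e-07). Pdha1 and Pdhb, subunits of pyruvate dehydrogenase, fell by 0.39 ± 0.0432 and 0.32 ± 0.0484 (adjusted p = 0.000965 and 0.00345). Emb, which encodes embigin, the alternative accessory protein of monocarboxylate transporters, fell by 0.45 ± 0.0937 (adjusted p = 0.0144), in contrast to the rise of Bsg.

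Of 16 genes that govern the traffic and stability of glucose transporters, 3 rose over both genotypes and none fell, against the same 8.56% and 9.56% of all genes. Akt1, a kinase of insulin signalling, rose by 0.50 ± 0.0736, Sgk1, a related kinase, by 0.40 ± 0.0822 and Rab10, a small GTPase of GLUT4 vesicles, by 0.26 ± 0.0591 (adjusted p = 0.00323, 0.0126 and 0.0197). Txnip, which promotes the internalisation of GLUT1, was not called (-0.19 ± 0.0776, adjusted p = 0.144). Of 14 transcription factors known to act on the described genes, 3 rose and 1 fell, again against 8.56% and 9.56%. Myc rose by 0.50 ± 0.059 (adjusted p = 0.00126), Sp1 by 0.25 ± 0.0521 (adjusted p = 0.0132) and Foxm1 by 0.38 ± 0.109 (adjusted p = 0.0483), and Epas1, the HIF-2 alpha subunit, fell by 0.91 ± 0.186 (adjusted p = 0.0129). Among 5 genes of HIF hydroxylation and degradation 3 rose, Egln3 by 3.24 ± 0.199 and Egln1 by 1.19 ± 0.0707 (adjusted p = 7.56e-05 and 6.75e-05), and Egln2 by 0.33 ± 0.0656 (adjusted p = 0.0105). The change of Egln2 was 0.08 in wild type and 0.58 in the knockout.

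The genes whose 8 values ran most like those of Slc2a1, by Pearson's r over the 8 arrays among 13646 other genes, were Prelid2 (0.998), Fam162a (0.996) and Pfkp (0.995). For Slc16a3 they were Ak4 (0.998), Pdk1 (0.994) and Ldha itself (0.992). Those of Ldha were Bnip3 (0.996), Ankrd37 (0.996) and Pdk1 (0.994). Ldhb ran most like Gbp2 (0.987), Tubgcp4 (0.984) and Samhd1 (0.981), of which Gbp2 and Samhd1 are known as interferon-induced genes. The arrays share 2 sets and the oxygen contrast, so these values describe likeness in these 8 arrays only.

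Between genotypes none of the 19 probe sets passed the threshold. The count was 0 in normoxia, in hypoxia and over both, against a background of 0.00666%, 0% and 0.04% of all probe sets in either direction. At an unadjusted p under 0.05 the limma fit gave 4, 5 and 8 of the 19, where the same was true of 4.63%, 4.63% and 6.45% of all probe sets. In these data a failure to pass does not show that the genotypes were alike.

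In normoxia the 4 were 2 probe sets of Slc2a1 and those of Slc16a3 and Ldha, all higher in the knockout. Slc16a3 was higher by 0.89 ± 0.191 (95% interval 0.45 to 1.33, adjusted p = 0.857), with 0.70 in the first and 1.08 in the second set. Ldha was higher by 0.31 ± 0.052 (0.20 to 0.43, adjusted p = 0.387), with 0.30 and 0.33. Slc2a1 by 1434773_a_at was higher by 0.25 ± 0.064 (0.11 to 0.40, adjusted p = 0.891), with 0.16 and 0.35. For these probe sets both knockout arrays were above both wild-type arrays in normoxia. They were picked by their p in these same arrays, so this separation adds no support. The remaining probe set of Slc2a1, 1426600_at, overlapped, with 8.37 and 9.1 in the knockout against 8.21 and 8.91 in wild type.

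In hypoxia the genotype difference was -0.04 (95% interval -0.47 to 0.40) for Slc16a3, -0.02 (-0.13 to 0.10) for Ldha and -0.13 (-0.28 to 0.02) for Slc2a1 by 1434773_a_at. The 3 probe sets of Slc2a1 were unequal here, since 1426600_at stood at 0.17 in normoxia and farther from 0 in hypoxia, at -0.31. The probe sets with an unadjusted p under 0.05 there were 1426599_a_at (-0.17) and 1426600_at of Slc2a1, the brighter pair of Slc2a3, and 1434499_a_at of Ldhb at 0.39. Slc2a3 stood at -0.62 ± 0.169 in the hypoxic knockout (adjusted p = 0.987), with -0.81 in the first and -0.44 in the second set. Over both oxygen conditions Slc2a3 stood at -0.44 ± 0.119 (adjusted p = 0.524) and Ldhb at 0.22 ± 0.0851 (adjusted p = 0.742), and neither passed.

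**Figure D4:**
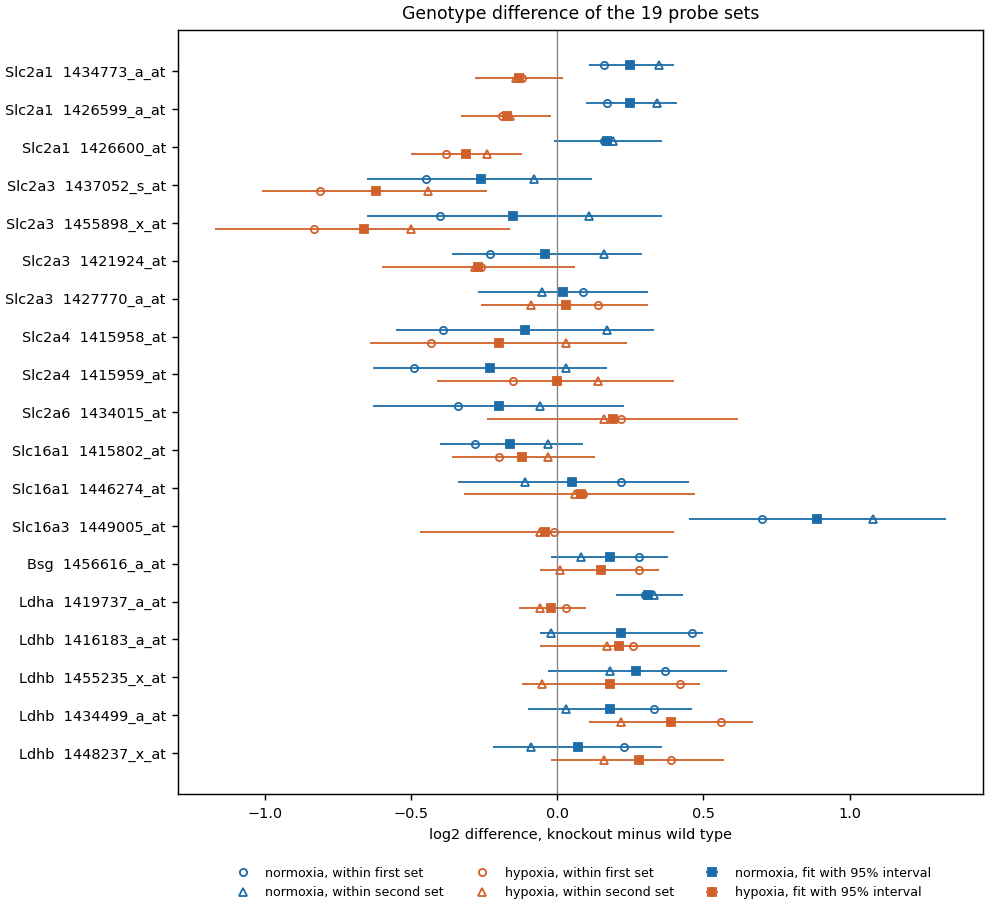
Log2 difference between knockout and wild type for each of the 19 probe sets, in normoxia (blue) and hypoxia (orange); squares with bars are the fitted difference with its 95% interval, and open symbols the difference within each set. Slc16a3 in normoxia, at 0.89, lies farthest from 0, and no probe set passed after adjustment over all 45037.

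The difference between the hypoxia responses (the knockout's less the wild type's, an interaction term) was not called for any of the 19 probe sets or for any other probe set of the array. At an unadjusted p under 0.05 the limma fit gave 5 of the 19, where 2.84% of all probe sets did so. They were the 3 probe sets of Slc2a1 (-0.38, -0.43 and -0.48), Slc16a3 (-0.93 ± 0.27, 95% interval -1.54 to -0.31) and Ldha (-0.33 ± 0.0736, -0.50 to -0.16), each with an adjusted p of 0.998. The sign was negative in both sets for each of them, at -0.71 and -1.14 for Slc16a3 and -0.27 and -0.39 for Ldha. Because they were picked by a small p in a fit over both sets, this shared sign adds no support. The 3 probe sets of Slc2a1 read the same gene and are not independent of each other. For Bsg the interaction was -0.03 (-0.32 to 0.25), for Slc16a1 0.04 (-0.31 to 0.39) and for 1416183_a_at of Ldhb 0 (-0.39 to 0.38). The interaction and the genotype difference in normoxia share their 4 normoxic arrays and are not independent of each other.

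Among the other lists the glycolytic enzymes had a median interaction of -0.12 against 0.03 over all genes, and a median genotype difference of 0.09 in normoxia and -0.01 in hypoxia, with no enzyme called. The 15 measured genes of lactate and pyruvate handling had a median interaction of 0.11, and none was called. Pdk1 of that list stood at -0.90 ± 0.143 and the enzyme Pfkl at -0.59 ± 0.152 for the interaction. Both had an adjusted p of 0.998 in the limma fit. They were named after their values were seen, so they add no support.

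More of these probe sets were called between sets than between genotypes, as was true of the whole array. Of the 19 probe sets 2 were higher and 7 lower in the second set, against 13.4% and 13.9% of all probe sets. Of the 7 lower, 4 were of Ldhb and 2 of Slc2a3. By gene 1 of 9 was higher and 3 were lower, against 17.4% and 14.4% of all genes. Slc16a1 differed by -0.96 ± 0.0762, a factor of 1.95 (SE, n = 4 arrays per set, limma adjusted p = 8e-05), and its 4 first-set arrays (10.53 to 11.03) lay above its 4 second-set arrays (9.82 to 9.85). Slc2a3 differed by -1.18 ± 0.119 and by -1.44 ± 0.155 for its 2 brighter probe sets (adjusted p = 0.000232 and 0.00031). Ldhb was lower in the second set by all 4 of its probe sets, from -0.70 to -0.52. Bsg was higher there by 0.56 ± 0.0626 (adjusted p = 0.000363).

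Slc2a1 gave different answers by probe set. The dimmer 1426600_at was higher in the second set by 0.77 ± 0.058 (adjusted p = 7.02e-05), whereas 1434773_a_at and 1426599_a_at stood at 0.05 and 0.09 and were not called. Slc16a3 (-0.07, 95% interval -0.38 to 0.24) and Ldha (0.03, -0.06 to 0.11) were not called between sets. The hypoxia response itself did not pass as different between sets for any of the 19 probe sets in the limma fit with that term, against 0% of all probe sets called. At an unadjusted p under 0.05 there were 2, 1455898_x_at of Slc2a3 at 0.64 and Slc16a3 at 0.50, where 7.85% of all probe sets did so. A like fit for the genotype difference, also chosen after the values were seen, called none of the 19 and 0.209% of all probe sets. It gave 3 at an unadjusted p under 0.05, where 8.1% of all probe sets did so: 1415958_at of Slc2a4 at 0.51, Bsg at -0.23 and 1434499_a_at of Ldhb at -0.32.

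Markers of other cells moved with the set as well. Of 12 macrophage and leukocyte markers 8 were lower in the second set, none was higher and 4 did not pass, with a median of -1.02, where 17.4% of all genes were higher and 14.4% lower. Their mean log2 value was 7.62 and 6.16 in wild-type normoxia, 7.10 and 5.89 in wild-type hypoxia, 5.65 and 5.33 in knockout normoxia and 5.78 and 5.24 in knockout hypoxia, in the first and second set. Within each oxygen condition the first-set wild-type array had the highest marker mean, and also the highest value of Slc2a3. In wild type the marker mean was lower in hypoxia than in normoxia in both sets. In the knockout the marker mean was higher in hypoxia in the first set and lower in the second. Slc2a3 was higher in hypoxia in both sets of both genotypes. Between genotypes the median of these markers was -1.54 in normoxia, with 1 of 12 lower (0.0165% of all genes called), and -1.05 in hypoxia, with none called, next to -0.26 and -0.62 for Slc2a3. Of these markers 1 had a mean below the 25th percentile. The 10 skeletal muscle markers averaged 7.27 and 7.42 in the first-set wild-type arrays and between 5.14 and 5.65 on the other 6, and the 10 neuronal markers 6.2 and 6.57 on those 2 arrays and between 5.47 and 6.08 on the others. The part of such cells in the values of Slc2a3, Slc2a4, Slc2a6, Slc16a1 and Ldhb was not tested. In these bulk samples fewer cells of a type and less RNA per cell cannot be told apart.

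With oxygen, 1 of the 12 macrophage and leukocyte markers fell over both genotypes (Lyz2, by 0.36 ± 0.0723, adjusted p = 0.0117) and none rose. Within wild type 2 of the 12 fell, with a median of -0.45, where 4.6% of all genes were lower. Within the knockout none passed, with a median of -0.03. None of 10 endothelial and none of 6 erythroid markers passed in the limma fit. Of 10 epithelial markers Krt19, a keratin, rose by 1.90 ± 0.137 (adjusted p = 0.00017) and Epcam fell by 0.41 ± 0.106 (adjusted p = 0.0331), of 8 adipocyte markers Fabp4 rose by 1.03 ± 0.25 (adjusted p = 0.0258), of 10 muscle markers Acta1 fell by 0.40 ± 0.0964 (adjusted p = 0.0262), and of 10 neuronal markers 3 rose and 1 fell. Over all genes 8.56% were higher and 9.56% lower, so counts of 1 in 8 to 12 markers are near the share of all genes. For Actb, the log2 value of the 3′ control less that of the 5′ control, a measure of RNA integrity, was higher in hypoxia by 0.10 to 0.17 in the 4 pairs of arrays and lower in the second set by 0.16 to 0.26. For Gapdh the same measure was higher in hypoxia by 0.04 to 0.33, and its second minus first set difference ran from -0.25 to 0.07. The part of RNA integrity in the changes of the 9 genes was not tested.

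**Figure D5:**
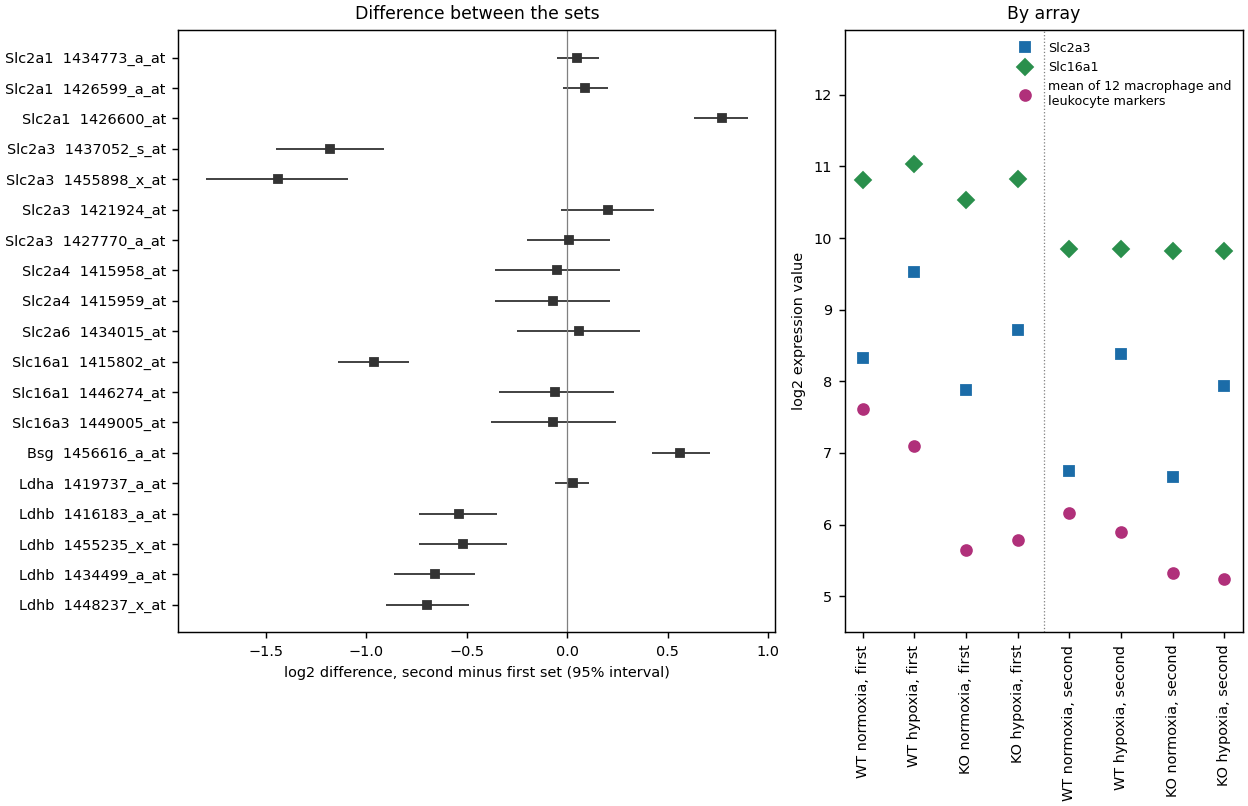
Left, the log2 difference between the second and the first set for each of the 19 probe sets, with its 95% interval; right, the log2 value on each array, split by set, of the brightest probe sets of Slc2a3 and Slc16a1 and the mean of 12 macrophage and leukocyte markers. Slc16a1 lies between 9.82 and 9.85 on the second-set arrays and at 10.53 or above on the first-set arrays, and the marker mean is highest, at 7.62 and 7.10, on the first-set wild-type arrays.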

How the data were processed

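Gene expression was measured on 8 one-colour arrays, 1 per sample, from biotin-labelled cRNA made from 5 ug of total RNA, per the labels' protocols. The deposited table holds 1 log2 value per probe set and array, made by the authors with RMA (no version given), per the submitters' processing notes. RMA forces the arrays it is run on to a common distribution, so a change shared by all transcripts is not visible among them. Whether it was run on all 8 arrays together is not given. The part of this processing in the differences between sets was not tested. The log2 scale was read from the values (2.09 to 14.71, array medians 5.01 to 5.12). The number of arrays limits the precision.

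Names come from the platform annotation: of 45037 probe sets, 34945 had 1 gene symbol, 932 had several, 9160 were unlisted and 64 controls were left out. Symbols were updated through RefSeq (GRCm38.p6) for 34741.

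R 4.3.3 and limma 3.58.1 fitted a mean per group plus the set to all probe sets, with no filter on low values, followed by eBayes with a trend (3 residual and 5.41 prior degrees of freedom). An adjusted p under 0.05 (Benjamini-Hochberg over all 45037, two-sided) is called. A gene in a list is read by its probe set of highest mean. In a simulation of the wild-type hypoxia contrast over 45037 probe sets, 50 were changed at each size. Of changes of 0.5, 1, 1.5 and 3, 8%, 44%, 72% and 92% were called. Far fewer probe sets were changed there than the 3282 called in the data. The adjustment depends on that number, so these shares may not carry over.

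Second minus first set differences of the 4 groups correlated at 0.535 to 0.728, so the replicate number, which the titles give as a second set, pairs the arrays. No 2 arrays held identical values. The members, lists and tests were chosen with earlier results of these data known. Named from each list were up to 4 genes of smallest p over both genotypes, and Egln2; Txnip, Slc16a7 and the interaction values of Pdk1 and Pfkl were named after their values were seen. List entries with no probe set of their own were left out. Alternatives were a fit without the set, the set as a random block, no variance trend, a filter at the 25th percentile of mean level, 1 probe set per gene with that filter, arrays centred on their median, a further quantile normalization, only the groups compared and leaving out each array.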

Additional observations from a re-analysis of the deposited data

How the results depend on the processing

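The set was a term in the fit because the replicate number pairs the arrays. Without this replicate block the called probe sets among the 19 went from 9 to 4 with hypoxia in wild type, from 7 to 4 in the knockout and from 12 to 5 over both genotypes, and over all probe sets from 3282 to 24, 2104 to 14 and 7117 to 113. With the set as a random block there were 5 in wild type, 5 in the knockout and 7 over both genotypes, and over all probe sets 375, 148 and 2773. With only the groups compared in the fit there were 5 in wild type and 3 in the knockout. In wild type Slc2a3 was among those that no longer passed (1.42, limma adjusted p = 0.0581). In the knockout Slc16a3 (2.42, adjusted p = 0.0654) and Ldha (0.88, adjusted p = 0.0619) were among them. With 1 probe set per gene and a filter at the 25th percentile together, which leaves 9 member probe sets of 13647 tested, 6 were called over both genotypes and 4 between sets, and Ldhb passed in wild type (-0.43, adjusted p = 0.0428, against 0.0609 with the filter alone). Without the variance trend Slc2a3 and Bsg no longer passed in the knockout (limma adjusted p = 0.0598 and 0.0617). Leaving out each array in turn gave 7 to 11 called probe sets in wild type, 5 to 8 in the knockout, 8 to 13 over both genotypes, 9 between sets, and 0 for each genotype difference and the interaction. The counts over all probe sets then ran from 353 to 2728 in wild type, 101 to 2450 in the knockout and 3871 to 6763 over both genotypes, so the background shares in the text move with single arrays by more than the members' counts do.

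Direction reversed only in genes that were not called, when 1 array was left out. In wild type Slc2a4 stood at -0.04 without normoxia replicate 2, and without hypoxia replicate 1 Slc2a6 stood at -0.07 and Slc16a1 at -0.03. In the knockout Slc2a4 stood at -0.03 without normoxia replicate 1 and -0.1 without hypoxia replicate 2, and Slc16a1 at -0.02 without normoxia replicate 1. Over all such fits Slc2a4 ranged from -0.04 to 0.44, Slc2a6 from -0.07 to 0.19 and Slc16a1 from -0.03 to 0.25 in wild type, and in the knockout Slc2a4 from -0.1 to 0.31 and Slc16a1 from -0.02 to 0.32. The causes were not tested. The file holds no detection calls, so it is not known which dim probe sets were above background.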
